A study of Mus musculus with 20 samples.

Results

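The 32 genes described here are markers of epithelial and mesenchymal state, 17 epithelial and 15 mesenchymal, listed by symbol, with no cut on a measured value. They were followed in primary mammary tumors and in cultured cells, each with and without a knockdown of *Rnaseh2c*. All 32 were found among the 20188 genes of the tumor table and among the 50667 Ensembl genes of the cell table. The mean over 6 libraries was at least 0.1 for 29 of the 32 in tumors and for 20 of the 32 in cells, and these were tested.

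Epithelial cells are held together by adherens junctions, built on E-cadherin, by tight junctions, built on claudins and occludin, and by desmosomes, and their intermediate filaments are keratins. In an epithelial-to-mesenchymal transition the factors of the Snail, Twist and Zeb families repress such genes, keratin filaments give way to vimentin, and matrix proteins such as fibronectin are made. Carcinoma cells often hold a mixed state, and a tumor also contains fibroblasts, pericytes and other host cells that express the mesenchymal genes.

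Mvt1 is a metastatic mouse mammary carcinoma line of FVB background. It was transduced with a scramble control shRNA (scr) or with sh4, an shRNA against *Rnaseh2c*, which encodes a subunit of the RNase H2 enzyme, and selected with puromycin. The labels call the scramble group wild type, but both groups carry an shRNA vector. The sh4 group is 1 shRNA in 1 transduced line, so effects of this shRNA and of the loss of its target cannot be told apart. For the cultured cells, total RNA came from 3 plates of each group. For the tumors, mRNA came from small sections of 3 scramble and 3 sh4 tumors, and each of the 3 injection experiments gave 1 tumor per shRNA, at day 30 by the labels. By the methods the hosts were virgin female FVB/nJ mice, obtained at about 6 weeks of age, and the cells were placed in the fourth mammary fat pad. Each tumor library holds mouse host RNA beside that of Mvt1 cells, and as both are of mouse they cannot be told apart. Nothing states that the plates were separate cultures, so p-values for the cells measure only the spread between these plates. RPKM and FPKM, used below, are reads or fragments scaled to gene length and to the size of the library.

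*Rnaseh2c* was at 26.9, 52.0 and 25.9 RPKM in the scramble tumors and at 10.2, 22.4 and 19.8 RPKM in the sh4 tumors. It was at 5.83, 7.06 and 5.34 FPKM in the scramble plates and at 3.19, 5.36 and 4.28 FPKM in the sh4 plates, where the highest sh4 value exceeded the lowest scramble value by a small margin. Read numbers are not given, and RPKM summed to 399938 to 484868 per tumor. A transcript length index, the median deviation of genes with under 1000 exonic bases minus that of genes with over 4000, was -0.18, 0.25 and -0.28 in the scramble tumors and -0.32, 0.37 and 0.05 in the sh4 tumors on the log2 scale. In the cells it was -0.06, -0.01 and -0.02 in scramble and 0.05, 0.04 and 0.01 in sh4 plates, so that all 3 sh4 plates lay above all 3 scramble plates, and in the cells the index and the group cannot be fully told apart. For many of the genes below the difference is therefore also given with this index as a covariate, whether it grew or shrank.

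The Mvt1 cells showed a mixed pattern, with keratins 8 and 18 and vimentin all near the top of the table and with the epithelial surface genes *Epcam* and *Cdh1* at or near 0. Of the 17 epithelial genes 6 had a mean of at least 1 FPKM in the cells, and of the 15 mesenchymal genes 5 did. In the tumors 8 of 17 epithelial and 14 of 15 mesenchymal genes reached a mean of 1 RPKM. The tables were normalised separately and rest on different RNA fractions, so levels in tumors and in cells were set side by side without a test.

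**Figure D1:**
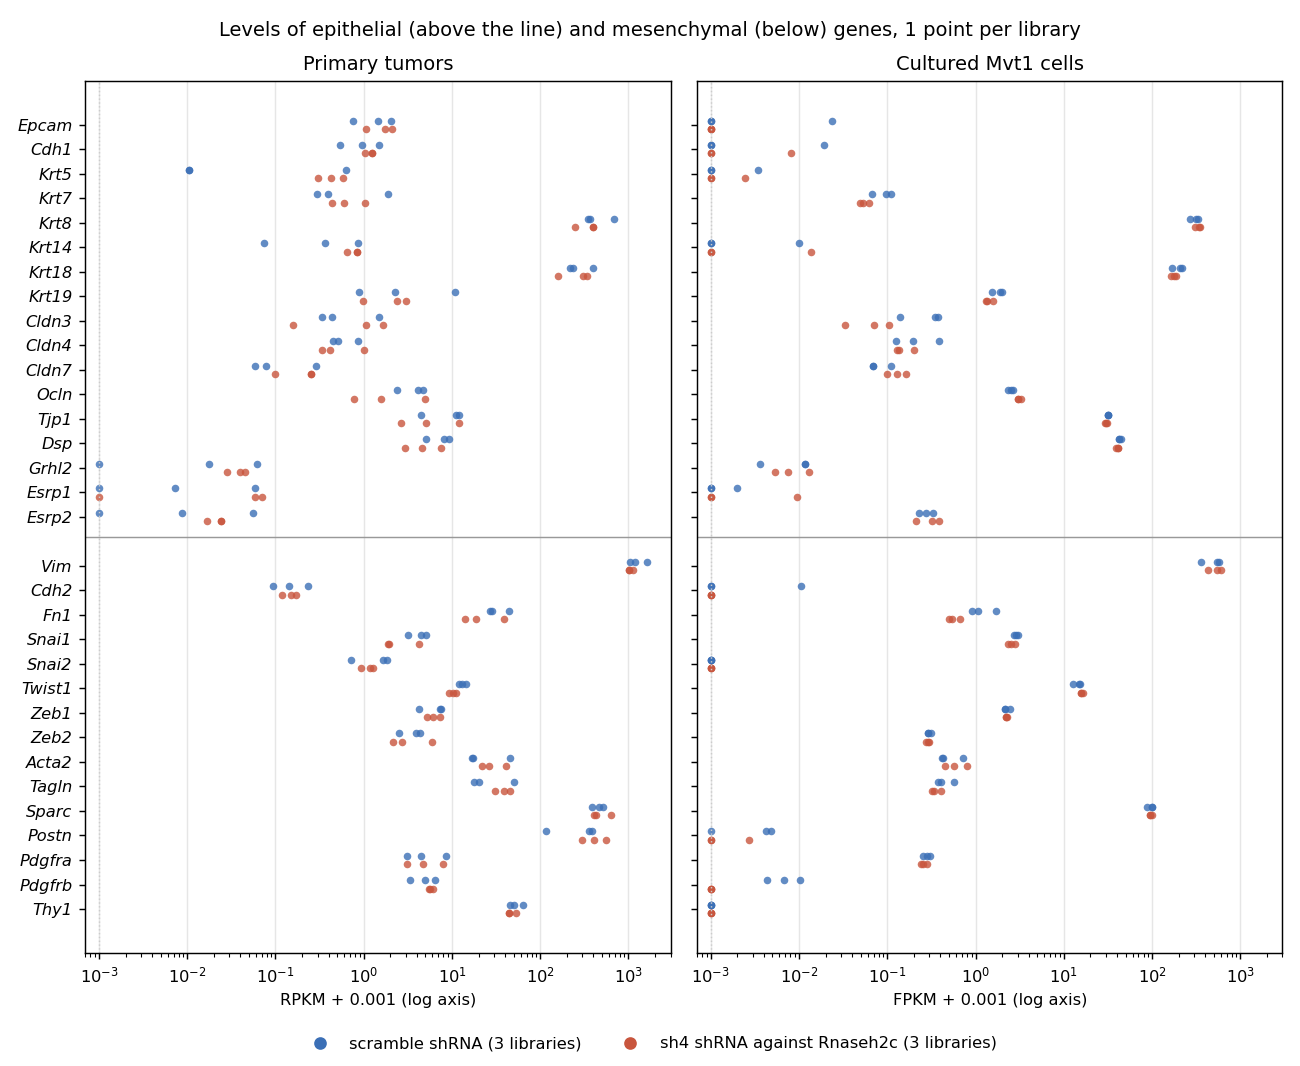
Level of each of the 32 genes in each library, as RPKM + 0.001 in the primary tumors (left) and FPKM + 0.001 in the cultured Mvt1 cells (right), both on log axes. Each point is 1 library, blue for scramble and red for sh4, and points on the dotted line are at 0. *Krt8*, *Krt18* and *Vim* sit at 160 or more in every library of both tables, whereas *Epcam*, *Cdh1*, *Postn* and *Thy1* are at or near 0 in the cells and well above it in the tumors.

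None of the 32 genes passed the test with *Rnaseh2c* knockdown on the values as deposited. The target *Rnaseh2c* did not pass it either. Its log2 fold change was -0.98 in tumors and -0.48 in cells (adjusted p = 0.995 and 0.236, limma). A gene that did not pass can therefore still differ. In the tumors 0 of the 29 tested genes had an adjusted p under 0.05 (limma, Benjamini-Hochberg), against 0.0% of all 13487 genes tested. In bulk tissue fewer cells of a type and less RNA per cell cannot be told apart. At an unadjusted p under 0.05 there were also 0 of 29, against 4.18% of all genes. In the cells 0 of the 20 tested genes passed, against 1.28% of 21106 genes, of which 110 rose and 160 fell. At an unadjusted p under 0.05 there were 4 of 20 (*Ocln* higher, *Cldn3*, *Krt19* and *Fn1* lower), against 18.9% of all genes. The scramble and sh4 values did not overlap for 1 of 29 genes in tumors (*Twist1*), against 9.17% of all genes, and for 6 of 20 in cells (*Ocln* and *Twist1* higher, *Cldn3*, *Tjp1*, *Dsp* and *Fn1* lower), against 27.5% of all genes. In the cells these shares of the 20 genes were near those of all genes.

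The median log2 fold change, sh4 minus scramble, was -0.04 for the 14 epithelial and -0.02 for the 15 mesenchymal genes tested in tumors, where it was -0.04 over all genes. Among the 8 epithelial genes averaging 1 RPKM or more it was -0.45, against -0.063 over all genes at that level. Of these 8, *Epcam* and *Cdh1* were positive. The values of *Krt8*, *Krt18* and *Krt19* depended on scramble tumor 2, and those of *Tjp1* and *Dsp* shrank with the length index, as given below. In cells it was -0.08 for 10 epithelial and -0.02 for 10 mesenchymal genes, and -0.0022 over all genes. Fold changes are on the scale of log2(value + 0.5), which understates changes of genes at low levels. Positive and negative differences were mixed in both classes, with 6 positive and 8 negative among epithelial genes in tumors and 5 positive and 10 negative among mesenchymal genes. In the cells the split was 4 positive and 6 negative in each class. The 2 tumors from the same experiment were also compared as a block. With the experiment as a block 4 of 29 genes had an unadjusted p under 0.05 (*Dsp*, *Fn1* and *Snai1* lower, *Postn* higher), against 6.75% of all genes, and adjusted p ranged from 0.714 to 0.996 (limma).

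**Figure D2:**
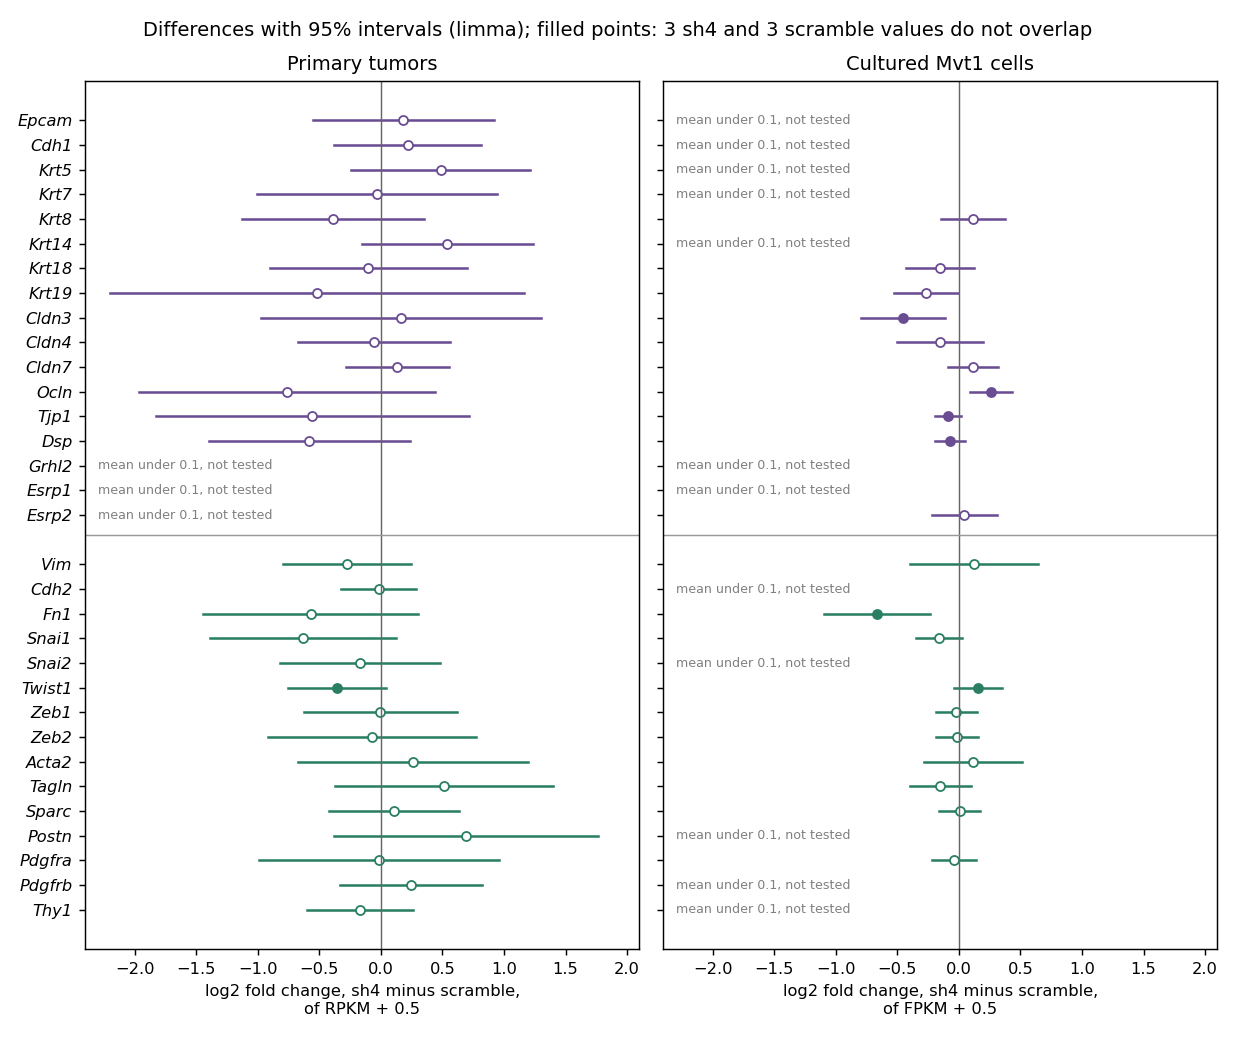
Log2 fold change of each gene, sh4 minus scramble, with its 95% interval from limma, in tumors (left) and cells (right), with epithelial genes above the line and mesenchymal genes below. Filled points mark genes whose 3 sh4 values and 3 scramble values do not overlap. Every tumor interval spans 0, and intervals are narrower in the cells, by little for *Vim*, where those of *Ocln*, *Cldn3*, *Krt19* and *Fn1* exclude 0 before adjustment.

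Keratins 8 and 18 pair to form the filaments of simple and luminal epithelium. In the tumors *Krt8* was at 366, 691 and 347 RPKM with scramble and at 248, 394 and 401 RPKM with sh4, and *Krt18* was at 219, 399 and 236 RPKM with scramble and at 160, 343 and 304 RPKM with sh4. Both were highest in scramble tumor 2 and lowest in sh4 tumor 1, and the groups overlapped. The log2 fold change was -0.39 with a standard error of 0.32 for *Krt8* and -0.10 with a standard error of 0.34 for *Krt18* (adjusted p = 0.995 and 0.997, limma), and without scramble tumor 2 these became -0.07 and 0.17. With the length index as a covariate they grew to -0.53 and -0.27 (adjusted p = 0.496 and 0.622, limma). In the cells *Krt8* was at 269, 316 and 333 FPKM with scramble and at 349, 340 and 304 FPKM with sh4, and *Krt18* was at 167, 209 and 217 FPKM with scramble and at 186, 179 and 165 FPKM with sh4. The groups overlapped there too, and the log2 fold change of 0.12 ± 0.11 (SE) for *Krt8* turned to -0.20 with the length index as a covariate. For *Krt18* the log2 fold change of -0.15 ± 0.11 (SE) grew to -0.50 with the index (adjusted p = 0.137, limma) and to -0.26 with quantile normalization (adjusted p = 0.0651, limma). By their mean these genes stood at percentiles 99.8 and 99.6 among the 18993 symbols that both tables list. In mm9 *Krt8* lies on chr15:101827142-101834773, minus strand, and *Krt18* on chr15:101858647-101862457, plus strand, with their starts 23874 bases apart.

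*Krt19*, the smallest keratin of simple epithelium, was at 2.27, 10.95 and 0.887 RPKM in scramble and at 2.37, 3.00 and 0.990 RPKM in sh4 tumors. Scramble tumor 2 stood apart, and the log2 fold change of -0.52 ± 0.72 (SE) became 0.33 without that tumor. In the cells it was at 1.53, 2.01 and 1.89 FPKM with scramble and at 1.58, 1.31 and 1.35 FPKM with sh4, a log2 fold change of -0.27 ± 0.11 (SE, adjusted p = 0.25, limma) that grew to -0.54 with the length index (adjusted p = 0.19, limma). The simple keratin *Krt7* ranged from 0.292 to 1.88 RPKM in tumors, highest again in scramble tumor 2, and from 0.0482 to 0.109 FPKM in cells. The basal keratins *Krt5* and *Krt14*, which mark myoepithelial cells, were near 0 in the cells, at most 0.0024 and 0.013 FPKM. In the tumors *Krt5* was at 0.0096, 0.623 and 0.0096 RPKM with scramble and at 0.306, 0.421 and 0.584 RPKM with sh4. *Krt14* was at 0.362, 0.858 and 0.0724 RPKM with scramble and at 0.651, 0.846 and 0.834 RPKM with sh4. Their log2 fold changes of 0.49 ± 0.31 and 0.54 ± 0.30 (SE) did not pass the test. Scramble tumor 2 was as high as the sh4 tumors for both, and without it the log2 fold changes were 0.87 and 0.86.

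The 6 keratins lay together above their means in scramble tumor 2, with a median deviation of 0.71 on the log2 scale, against -0.28 and -0.51 in the other scramble tumors and -0.19, 0.30 and 0.12 in the sh4 tumors. The same tumor held far more adipocyte RNA. Its sum over 10 adipocyte markers was 2768 RPKM, against 42.3 to 389 RPKM in the other tumors, and its sum over 9 fibroblast markers was 502 RPKM, against 484 to 1220 RPKM. The part of these markers in the keratin values was not tested.

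*Epcam* and *Cdh1* (E-cadherin) encode the adhesion proteins by which carcinoma cells of epithelial type are usually recognised. In the tumors *Epcam* was at 1.44, 2.04 and 0.749 RPKM with scramble and at 2.09, 1.73 and 1.06 RPKM with sh4, and *Cdh1* was at 1.47, 0.533 and 0.958 RPKM with scramble and at 1.03, 1.24 and 1.25 RPKM with sh4. The groups overlapped for both, with log2 fold changes of 0.18 ± 0.32 and 0.22 ± 0.26 (SE). In the cells *Epcam* was listed at 0 in 5 of 6 libraries and at 0.0228 FPKM in scramble plate 1, and *Cdh1* was listed at 0 in 4 of 6, at most 0.018 FPKM. *Cdh2* (N-cadherin), which often replaces E-cadherin in mesenchymal cells, was likewise low, at 0.0921 to 0.230 RPKM in tumors and listed at 0 in 5 of 6 cell libraries. Both classical cadherins on the list were thus at or near 0 among the Ensembl genes of the cells. Assembled loci without an Ensembl id were left out. They summed to 694400 to 876272 FPKM per plate, against 659082 to 864566 FPKM for the Ensembl genes. Whether any of them covers a gene listed at 0 was not tested.

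The promoters of the keratins and surface genes can be compared for the letters that Snail and Zeb proteins read, the E-box CACCTG or CAGGTG, which are each other's reverse complement. RefSeq promoter windows (GRCm38.p6) were found for 20 of the 32 genes, and the 250 bases before the start were searched on both strands, taking for a gene with several windows the one with most matches. A match was present for 8 of 12 epithelial and 1 of 8 mesenchymal genes. Of all 32851 windows 17.2% held a match, a share counted per single window and not per gene, so it is not a like measure. The windows of *Epcam* (chr17:87635729-87635978, plus strand) and *Cldn7* (chr11:69965171-69965420, plus strand), genes low in the cells, are shown beside those of *Krt8* (chr15:102004343-102004592, minus strand) and *Krt18* (chr15:102027966-102028215, plus strand), genes high in the cells. They are written 5′ to 3′ on the strand of the gene, with the E-box in capitals.
Epcam: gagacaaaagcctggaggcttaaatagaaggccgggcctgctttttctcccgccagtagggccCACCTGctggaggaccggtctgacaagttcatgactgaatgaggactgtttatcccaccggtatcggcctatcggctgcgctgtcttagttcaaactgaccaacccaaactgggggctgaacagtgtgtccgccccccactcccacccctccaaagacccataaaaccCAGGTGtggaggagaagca
Cldn7: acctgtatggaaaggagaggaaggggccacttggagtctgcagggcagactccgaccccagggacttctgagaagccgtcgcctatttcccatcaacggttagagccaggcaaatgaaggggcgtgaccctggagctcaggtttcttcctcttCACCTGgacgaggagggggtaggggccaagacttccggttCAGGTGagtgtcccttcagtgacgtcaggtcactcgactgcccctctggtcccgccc
Krt8: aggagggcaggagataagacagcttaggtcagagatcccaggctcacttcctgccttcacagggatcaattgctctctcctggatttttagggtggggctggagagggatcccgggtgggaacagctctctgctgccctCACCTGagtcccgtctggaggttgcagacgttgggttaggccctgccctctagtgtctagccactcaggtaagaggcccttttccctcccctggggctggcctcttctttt
Krt18: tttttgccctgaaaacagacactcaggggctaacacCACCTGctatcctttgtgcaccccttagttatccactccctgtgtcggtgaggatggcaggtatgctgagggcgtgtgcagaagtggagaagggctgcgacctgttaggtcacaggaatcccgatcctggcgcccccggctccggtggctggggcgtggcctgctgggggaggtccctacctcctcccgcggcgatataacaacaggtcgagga
*Epcam* and *Cldn7* hold 2 matches each and *Krt8* and *Krt18* hold 1 each, and only windows with a match are shown. The levels did not follow the matches over the other genes. *Ocln*, well expressed in the cells, also held 2 matches, and *Krt5*, *Krt7* and *Cldn4*, low in the cells, held 1 each. The windows of *Tjp1* and *Dsp*, well expressed in the cells, and of *Cldn3* and *Krt14*, low in the cells, held 0 matches. A link between matches and levels was not tested. A match describes the window and is not a measured binding site.

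Claudins seal the tight junction. In the cells *Cldn3*, *Cldn4* and *Cldn7* lay between 0.032 and 0.388 FPKM. *Cldn3* was at 0.348, 0.370 and 0.137 FPKM with scramble and at 0.102, 0.0691 and 0.0320 FPKM with sh4. All 3 sh4 plates lay below all 3 scramble plates, with a mean 0.238 times that of scramble and a log2 fold change of -0.46 ± 0.14 (SE, adjusted p = 0.166, limma). *Cldn7* was at 0.0684, 0.0682 and 0.109 FPKM with scramble and at 0.127, 0.0972 and 0.162 FPKM with sh4, and *Cldn4* ranged from 0.126 to 0.388 FPKM with overlapping groups. These are low levels, where a value rests on few reads. In the tumors *Cldn3* was at 1.505, 0.431 and 0.332 RPKM with scramble and at 0.156, 1.64 and 1.06 RPKM with sh4, with no order between the groups. *Cldn4* ranged from 0.338 to 1.02 RPKM and *Cldn7* from 0.0579 to 0.290 RPKM in tumors, again with overlapping groups.

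Occludin, ZO-1 and desmoplakin link junctions to the cytoskeleton or the tight junction strand, and their genes *Ocln*, *Tjp1* and *Dsp* were well expressed in the cells. *Ocln* was at 2.36, 2.495 and 2.67 FPKM with scramble and at 3.29, 3.03 and 2.99 FPKM with sh4, so all sh4 plates were higher. Its log2 fold change was 0.26 ± 0.07 (SE, adjusted p = 0.127, limma) and became 0.13 with the transcript length index as a covariate. With quantile normalization it passed, at 0.28 (adjusted p = 0.0456, limma). *Tjp1* was at 32.04, 31.9 and 31.7 FPKM with scramble and at 29.7, 29.5 and 30.6 FPKM with sh4, and *Dsp* was at 43.9, 41.7 and 42.2 FPKM with scramble and at 41.1, 39.1 and 41.2 FPKM with sh4. Both sets of 3 sh4 values lay just below the scramble values, by 0.09 ± 0.04 and 0.07 ± 0.05 (SE) on the log2 scale, and the differences shrank to -0.05 and -0.0072 with the index. *Dsp* and *Tjp1* are long transcripts, with 9625 and 7360 exonic bases in the annotation.

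In the tumors *Ocln* was at 2.38, 4.74 and 4.13 RPKM with scramble and at 4.96, 0.783 and 1.55 RPKM with sh4. *Tjp1* was at 12.1, 4.43 and 10.99 RPKM with scramble and at 12.1, 2.65 and 5.14 RPKM with sh4, and *Dsp* was at 9.14, 5.03 and 8.16 RPKM with scramble and at 7.43, 2.97 and 4.52 RPKM with sh4. *Tjp1* and *Dsp* were low in scramble tumor 2, sh4 tumor 2 and sh4 tumor 3, the 3 tumors with the highest transcript length index, and sh4 tumor 1 was as high as scramble tumors for *Ocln* and *Tjp1*. The log2 fold changes of -0.76 ± 0.52 for *Ocln*, -0.56 ± 0.55 for *Tjp1* and -0.58 ± 0.35 for *Dsp* (SE, adjusted p = 0.995 for each, limma) became -0.61, -0.27 and -0.41 with the index as a covariate. Within experiments 1, 2 and 3 the *Dsp* difference was -0.28, -0.67 and -0.79, whereas that of *Ocln* was 0.92, -2.03 and -1.18. *Ocln* thus differed in sign between experiments, and it lay lower in the sh4 tumors of 2 experiments while higher in all sh4 plates of the cells.

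**Figure D3:**
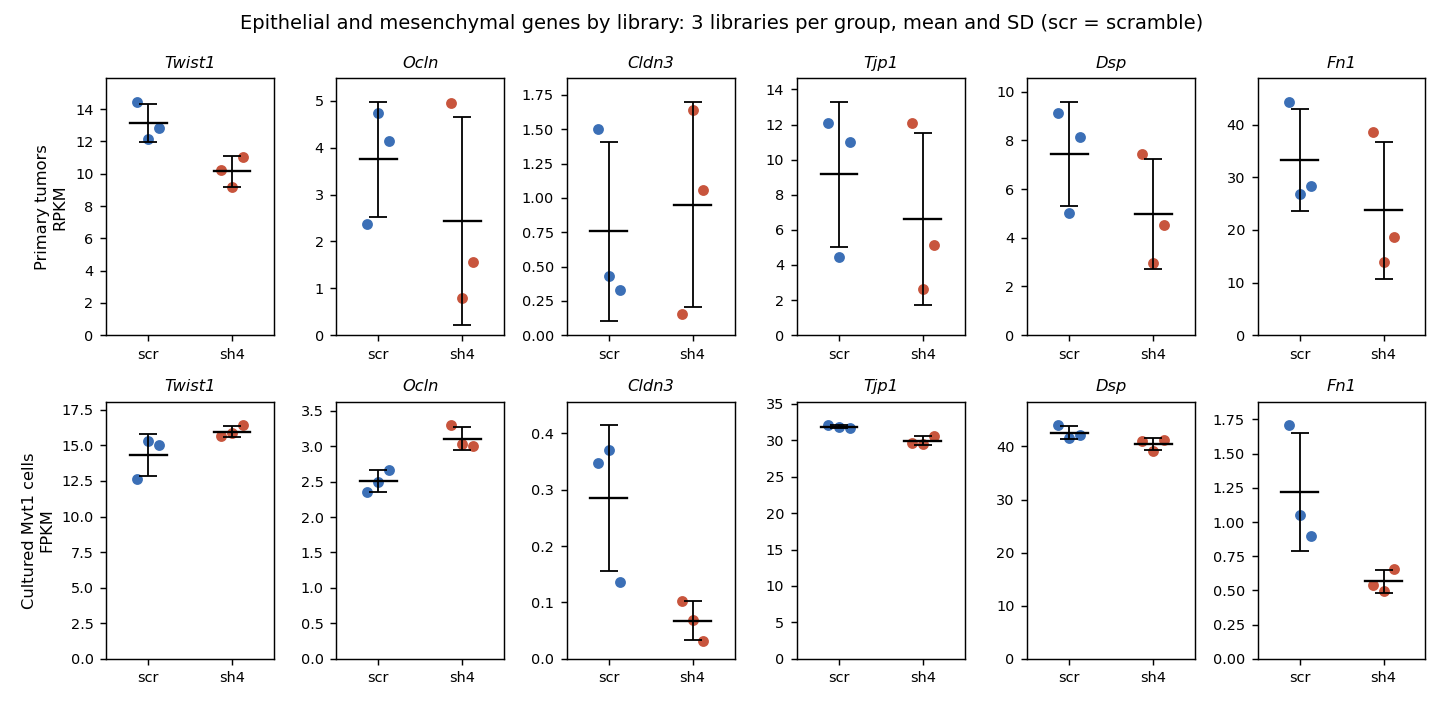
Values of 6 genes whose scramble and sh4 libraries do not overlap in at least 1 table, as RPKM in tumors (top) and FPKM in cells (bottom). Points are single libraries, and the bars give the mean and SD of 3. *Twist1* lies lower in all sh4 tumors (9.16 to 11.03 RPKM against 12.1 to 14.5) and higher in all sh4 plates (15.7 to 16.4 FPKM against 12.7 to 15.3).

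*Grhl2*, which encodes an activator of the epithelial programme, and *Esrp1* and *Esrp2*, which encode epithelial splicing regulators, were under the limit for testing in tumors. *Grhl2* reached at most 0.0607 RPKM, *Esrp1* 0.0700 RPKM and *Esrp2* 0.0546 RPKM. Their values were whole multiples of a smallest step within 0.05 of a step, between 0 and 11 steps in each tumor. Scramble tumor 1 was at 0 for all 3 genes and scramble tumor 2 at 11, 9 and 7 steps, and the groups overlapped for each of the 3 genes. At this level a difference between the groups was not detectable. In the cells *Grhl2* and *Esrp1* were at or below 0.012 FPKM, and *Esrp2* was at 0.325, 0.230 and 0.275 FPKM with scramble and at 0.318, 0.208 and 0.383 FPKM with sh4, with a log2 fold change of 0.04 ± 0.11 (SE) that became 0.26 with the length index.

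Of the 5 transcription factors that drive the transition, *Twist1* was the highest in both tables. It was at 14.5, 12.1 and 12.8 RPKM in the scramble tumors and at 10.2, 9.16 and 11.03 RPKM in the sh4 tumors. All sh4 tumors lay below all scramble tumors, and the sh4 tumor was lower within each experiment, by a log2 difference of -0.48, -0.39 and -0.21. The log2 fold change was -0.36 ± 0.17 (SE, adjusted p = 0.995, limma) and -0.33 with the length index, and the exact two-sided permutation test gave p = 0.1, the smallest p that 3 against 3 allows. In the cells the groups were apart in the other direction. *Twist1* was at 12.7, 15.3 and 15.02 FPKM with scramble and at 15.7, 15.8 and 16.4 FPKM with sh4, a log2 fold change of 0.16 ± 0.08 (SE, adjusted p = 0.352, limma) that fell to 0.0075 with the index as a covariate. Scramble plate 1 was the lowest, and without it the log2 fold change in cells was 0.071. The difference between the tables was not tested.

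*Snai1* was at 5.10, 3.15 and 4.42 RPKM in scramble and at 4.196, 1.93 and 1.86 RPKM in sh4 tumors. The sh4 tumor was lower in each of the 3 experiments, by a log2 difference of -0.25, -0.59 and -1.06, while sh4 tumor 1 lay within the scramble range. Its log2 fold change was -0.63 ± 0.33 (SE, adjusted p = 0.995, limma). In the cells it was at 3.02, 2.74 and 2.86 FPKM with scramble and at 2.31, 2.501 and 2.76 FPKM with sh4, a log2 fold change of -0.16 ± 0.08 (SE, adjusted p = 0.329, limma) that turned to 0.03 with the length index. *Snai2*, the other Snail family member of the list, was at 0.707 to 1.81 RPKM in tumors and listed at 0 in all 6 cell libraries.

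*Zeb1* and *Zeb2* encode the zinc finger repressors of *Cdh1*. *Zeb1* was at 7.55, 4.198 and 7.38 RPKM in scramble and at 7.36, 5.25 and 6.02 RPKM in sh4 tumors, and between 2.15 and 2.45 FPKM in the cells. Its log2 fold change was -0.0054 in tumors and -0.02 in cells, with 95% intervals of -0.63 to 0.62 and -0.19 to 0.15. *Zeb2* was at 4.28, 2.53 and 3.89 RPKM in scramble and at 5.92, 2.17 and 2.69 RPKM in sh4 tumors, and between 0.275 and 0.310 FPKM in the cells. The groups overlapped for both genes in both tables. All 5 factors had a negative tumor difference as deposited, but the signs of *Zeb1* and *Zeb2* turned with quantile normalization and with the length index.

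*Vim*, the filament protein of mesenchymal cells, was the most abundant of the 32 genes in both tables. It was at 1200, 1637 and 1031 RPKM in scramble and at 1017, 1010 and 1112 RPKM in sh4 tumors, with the highest value again in scramble tumor 2. In the cells it was at 361, 540 and 572 FPKM with scramble and at 610, 430 and 550 FPKM with sh4, percentile 99.9 of the table. The log2 fold change was -0.28 ± 0.22 in tumors and 0.12 ± 0.21 in cells (SE), and the groups overlapped in both. The cell value turned to -0.32 with the length index and to -0.10 with quantile normalization. Every plate thus held RNA of both filament systems at a high level.

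*Fn1* encodes fibronectin. It was at 1.71, 1.05 and 0.8999 FPKM with scramble and at 0.540, 0.496 and 0.6599 FPKM with sh4 in the cells, so that all sh4 plates were lower. Its mean was 0.464 times that of scramble, and its log2 fold change of -0.66 ± 0.18 (SE, adjusted p = 0.128, limma) shrank to -0.14 with the transcript length index. In the tumors *Fn1* was at 44.4, 26.9 and 28.4 RPKM with scramble and at 38.6, 14.0 and 18.6 RPKM with sh4. The sh4 tumor was lower in each experiment, by -0.20, -0.92 and -0.59 on the log2 scale, with a log2 fold change of -0.57 ± 0.38 (SE, adjusted p = 0.995, limma) that became -0.42 with the index. *Fn1* was thus lower with sh4 in both tables without passing the test in either, and its transcripts cover 8344 exonic bases.

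*Sparc*, a matrix glycoprotein made by fibroblasts and by many mesenchymal tumor cells, was at 510, 381 and 465 RPKM in scramble and at 408, 433 and 639 RPKM in sh4 tumors. It was the only other mesenchymal gene near the top of the cell table, at 88.3, 99.0 and 100.2 FPKM with scramble and at 98.8, 95.7 and 93.6 FPKM with sh4, with a log2 fold change of 0.0055 and a 95% interval of -0.16 to 0.17, and a log2 fold change of -0.16 with the length index. *Postn*, the matrix protein periostin, was at 381, 118 and 353 RPKM in scramble and at 558, 296 and 407 RPKM in sh4 tumors, against at most 0.0038 FPKM in the cells. The *Postn* difference within experiments was 0.55, 1.33 and 0.20, and its log2 fold change was 0.69 ± 0.46 (SE, adjusted p = 0.995, limma). Scramble tumor 2, with its low fibroblast sum and high adipocyte sum, was the lowest tumor for *Postn*, and without it the log2 fold change was 0.15. With the length index as a covariate the log2 fold change grew to 0.91 (adjusted p = 0.454, limma). The fibroblast sum was lowest in sh4 tumor 2, at 484 RPKM, where *Postn* was at 296 RPKM.

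The remaining 5 genes mark fibroblasts, pericytes and contractile cells of the stroma. *Thy1* was at 64.3, 51.0 and 45.5 RPKM in scramble and at 53.3, 44.7 and 43.9 RPKM in sh4 tumors, and was listed at 0 in all cell libraries. *Pdgfrb*, the receptor that marks pericytes and fibroblasts, was at 6.38, 3.36 and 4.97 RPKM in scramble and at 5.67, 5.48 and 6.09 RPKM in sh4 tumors, and at most 0.0092 FPKM in cells. *Pdgfra*, a fibroblast receptor, was between 3.08 and 8.59 RPKM in tumors and between 0.241 and 0.301 FPKM in cells, with overlapping groups in both. These receptors and *Thy1* were thus listed at higher values in tumors than in cells, set side by side without a test. Whether host or Mvt1 cells held this RNA in the tumors cannot be told.

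The contractile genes *Acta2* (smooth muscle actin) and *Tagln* (transgelin) had much the same order over the tumors. *Acta2* was at 17.5, 16.98 and 45.3 RPKM with scramble and at 22.1, 26.4 and 40.6 RPKM with sh4. *Tagln* was at 20.4, 17.7 and 49.96 RPKM with scramble and at 30.4, 38.6 and 45.6 RPKM with sh4. Both were highest in the tumors of experiment 3 in either group, and their log2 fold changes were 0.26 ± 0.40 and 0.51 ± 0.38 (SE). Both rested on single tumors. Leaving out scramble tumor 3 gave 0.72 and 0.97, and leaving out scramble tumor 2 gave 0.025 and 0.24. For *Acta2* the value was 0.017 when sh4 tumor 3 was left out. In the cells *Acta2* was between 0.414 and 0.799 FPKM and *Tagln* between 0.322 and 0.563 FPKM, with overlapping groups. The *Acta2* difference of 0.11 ± 0.16 (SE, log2) grew to 0.67 with the length index (adjusted p = 0.135, limma), and that of *Tagln* of -0.15 ± 0.10 to -0.30.

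Markers of host cells differed in amount between the tumors and give the setting of these values. The sum over 10 endothelial markers was 32.3 to 37.5 RPKM in scramble and 45.4 to 73.5 RPKM in sh4 tumors. All 10 of 10 differences were positive, 5 of them at an unadjusted p under 0.05, against 4.18% of all genes, and 0 past the test (limma). The 10 markers were measured in the same tumors and are not independent results. The sum over 8 pericyte and smooth muscle markers was 15.9 to 21.9 RPKM in scramble and 17.9 to 26.4 RPKM in sh4 tumors, and that over 9 fibroblast markers was 502 to 1072 and 484 to 1220 RPKM. The part of these markers in the mesenchymal values was not tested. In the cells the fibroblast sum was 0.282 to 0.340 FPKM with scramble and 0.179 to 0.236 FPKM with sh4, with *Lum* and *Pdpn* listed at 0, and the leukocyte sum 1.32 to 1.92 FPKM, most of the latter *Csf1r* at 1.09 to 1.53 FPKM. The endothelial sum was 6.84 to 13.3 FPKM with scramble and 5.29 to 6.70 FPKM with sh4, lower with sh4 and so unlike the tumors. It was mostly *Egfl7*, at 4.94 to 12.9 FPKM (log2 fold change -0.60, adjusted p = 0.258, limma), while *Emcn* and *Tie1* were listed at 0. *Egfl7* was also a large part of the tumor sum, at 9.96 to 27.4 RPKM. As the cultured cells held it, this part of the tumor sum cannot be assigned to host cells.

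**Figure D4:**
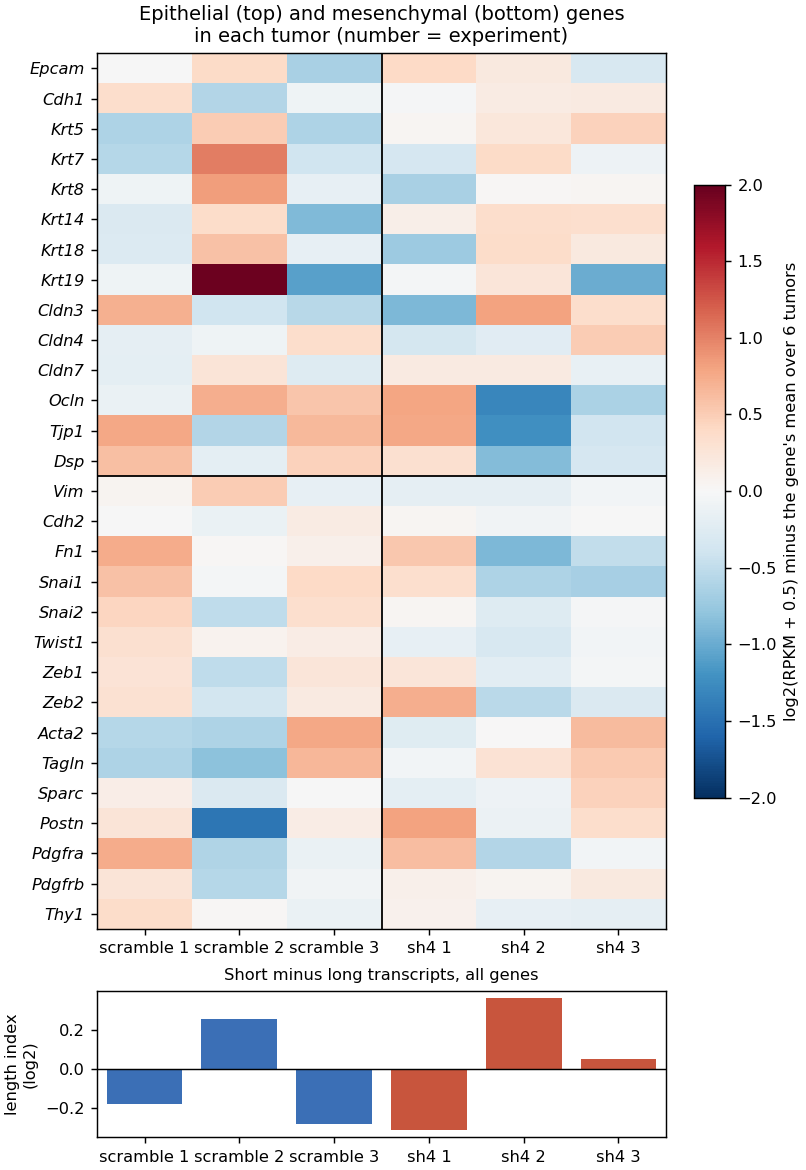
Deviation of each tested gene from its mean over the 6 tumors on the log2(RPKM + 0.5) scale (colours), with epithelial genes above and mesenchymal genes below the horizontal line and scramble tumors left of the vertical line. The bars below give the transcript length index of each tumor over all genes, from -0.32 in sh4 tumor 1 to 0.37 in sh4 tumor 2. Scramble tumor 2 is high in keratins and low in *Postn*, *Acta2* and *Tagln*, and *Tjp1* and *Dsp* are low where the index is high.

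Lists of related genes placed the 32 in their setting. In the tumors none of the 92 tested genes of 5 related lists passed the test. Of 25 junction and polarity genes 7 differences were positive and 18 negative, and of 19 transition regulators and TGF-beta signaling genes 4 were positive and 15 negative, with medians of -0.13 and -0.16 against -0.04 over all genes. In the cells 6 of 66 passed, against 1.28% of all genes, with the lists chosen when earlier results of these data were known. These were *Perp* among 24 junction and polarity genes, *Smad3* among 16 transition regulators and TGF-beta signaling genes, and *Thbs1*, *Itgb3*, *Ctgf* and *Cyr61* among 19 genes of mesenchymal adhesion, matrix and contraction. *Cyr61* came under the rule for named genes once another gene of its list was left out, and was picked after its values were seen. Neither of 2 other keratins nor any of 5 epithelial regulators and surface proteins passed.

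*Perp*, a desmosomal protein and p53 target, rose from 43.0, 47.8 and 49.8 FPKM with scramble to 80.7, 81.6 and 76.0 FPKM with sh4. Its mean was 1.69 times that of scramble, with a log2 fold change of 0.76 ± 0.07 (SE, adjusted p = 0.0181, limma). The plakin and plakoglobin genes of the same list had the other direction. *Jup* (plakoglobin) was at 9.51, 9.39 and 9.57 FPKM with scramble and at 8.18, 8.12 and 8.00 FPKM with sh4 (adjusted p = 0.082, limma), and *Ppl* (periplakin) was at 21.7, 21.8 and 19.4 FPKM with scramble and at 17.5, 16.5 and 18.0 FPKM with sh4 (adjusted p = 0.107, limma). Like *Dsp*, both were lower in all sh4 plates. In the tumors *Jup* was at 22.0, 15.5 and 22.1 RPKM with scramble and at 15.8, 8.35 and 12.0 RPKM with sh4, and *Ppl* was at 5.41, 8.50 and 6.42 RPKM with scramble and at 5.30, 2.73 and 3.95 RPKM with sh4. The tumor differences of -0.73 ± 0.26 and -0.71 ± 0.28 (SE, log2) did not pass the test and stayed at -0.61 and -0.68 with the length index. *Perp* in tumors was at 5.68, 8.60 and 5.28 RPKM with scramble and at 24.5, 7.34 and 7.46 RPKM with sh4, where the mean rests on sh4 tumor 1.

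*Smad3*, a transducer of TGF-beta signaling, fell in the cells. It was at 8.40, 8.09 and 8.32 FPKM with scramble and at 6.47, 6.43 and 6.32 FPKM with sh4, a log2 fold change of -0.35 ± 0.05 (SE, adjusted p = 0.0394, limma). *Skil*, an inhibitor of SMAD proteins, fell just short at 9.95, 9.98 and 10.5 against 8.08, 8.30 and 7.99 FPKM (adjusted p = 0.0501, limma). In the tumors *Smad3* was at 7.49, 6.67 and 10.3 RPKM with scramble and at 7.73, 4.31 and 6.61 RPKM with sh4. The groups overlapped there, and the tumor difference of -0.38 ± 0.27 (SE, log2) did not pass the test.

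Thrombospondin 1 and integrin β3 are adhesion proteins of migrating cells. *Thbs1* fell from 22.8, 23.1 and 22.4 FPKM to 14.5, 14.8 and 14.6 FPKM, a log2 fold change of -0.62 ± 0.04 (SE, adjusted p = 0.00798, limma), and *Itgb3* from 5.98, 6.85 and 6.25 FPKM to 4.12, 4.07 and 3.93 FPKM, a log2 fold change of -0.59 ± 0.07 (SE, adjusted p = 0.0241, limma). The matricellular genes *Ctgf* and *Cyr61*, known targets of YAP, went the other way. *Ctgf* rose from 28.7, 31.3 and 33.8 FPKM to 44.2, 42.5 and 43.4 FPKM (log2 fold change 0.47 ± 0.07, SE, adjusted p = 0.0453, limma) and *Cyr61* from 25.4, 26.4 and 28.2 FPKM to 35.1, 36.3 and 40.4 FPKM (log2 fold change 0.48 ± 0.07, SE, adjusted p = 0.0454, limma). Members of the mesenchymal list thus passed in both directions, 2 higher and 2 lower. In the tumors *Thbs1*, *Itgb3*, *Ctgf* and *Cyr61* had overlapping groups.

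**Figure D5:**
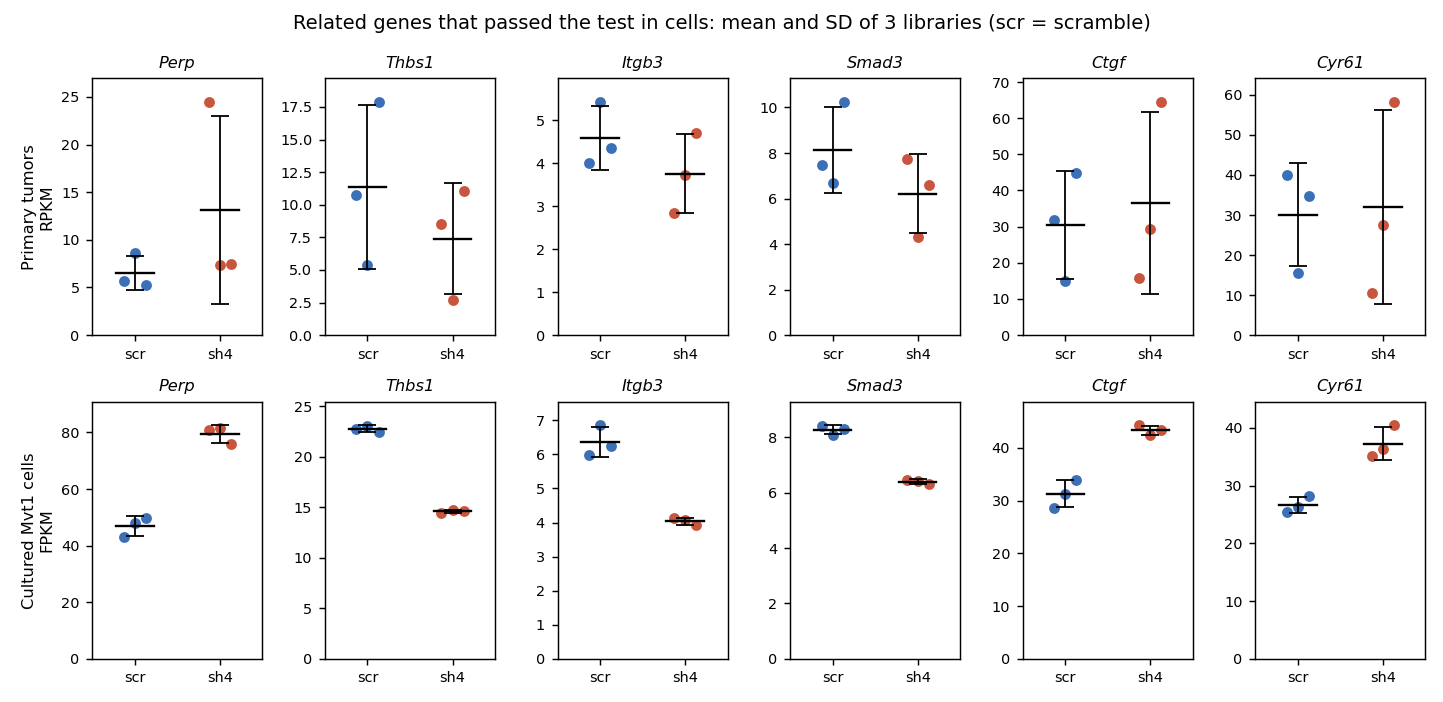
Values of the 6 related genes that passed the test in the cells, as RPKM in tumors (top) and FPKM in cells (bottom). Points are single libraries, and the bars give the mean and SD of 3. The groups are apart in the cells for all 6 genes, while in the tumors they overlap for all 6.

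These 6 calls rested on the full set of plates. Without scramble plate 1 the test still called 5 of the 6, all but *Cyr61*, whereas without any 1 of the other 5 plates it called none, with an adjusted p of up to 0.177. With the transcript length index as a covariate their adjusted p was 0.0988 to 0.213, and with the plate number as a block 0.2 to 0.263 (limma), while quantile normalization and median-ratio scaling kept all 6, at 0.0429 and 0.0247 or less.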

How the data were processed

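RNA was sequenced from 6 primary tumors and 6 plates of cultured Mvt1 cells. For the tumors the authors aligned reads to mm9 and Ensembl transcripts with Tophat, name Partek for the analysis, and deposited RPKM for each gene. For the cells the deposited values are FPKM per gene; the methods name Tophat and GENCODE annotation, and the submitters' processing notes list STAR 2.7 and TopHat2 2.1.0 without roles. Counts were not used here and the depth is unknown, so no counting interval is given. From the cell data 239874 assembled loci were left out. The 32 members and all lists were chosen with earlier results of these data known.

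Each table was fitted separately with limma 3.58.1 (R 4.3.3), with an intensity trend, on log2(value + 0.5) for genes whose 6 libraries averaged 0.1 or more. P-values were adjusted by Benjamini-Hochberg over all genes tested, with a threshold of 0.05. The fit was tested on simulated data. The simulated noise was independent between genes and libraries, so shared effects such as that of the length index were not covered. Gene positions and exon lengths are from GENCODE on mm9, and promoter windows from RefSeq on GRCm38.p6. Of each related list and table, 4 genes could be named for their low p and 2 for their high mean level. The tumor fit has no block, and as tumors share an experiment number by their labels, a fit with the experiment as a block was the alternative. The deviations of the 2 tumors of an experiment correlated at 0.138, 0.330 and -0.117. The alternatives were other pseudocounts, filters and scalings, a replicate block, a length covariate and leaving out each library. 1 gene of a related list is not reported here and was left out of its counts.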

Additional observations from a re-analysis of the deposited data

Results flagged for a closer look

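*Twist1* lay lower in all 3 sh4 tumors and higher in all 3 sh4 plates than in the scramble libraries of the same table. Of all genes tested, 9.17% in tumors and 27.5% in cells had groups that did not overlap. The log2 fold change was -0.36 in tumors and 0.16 in cells, and neither passed the test. With the length index as a covariate these became -0.33 and 0.0075. Without scramble plate 1, the lowest plate, the cell value was 0.071, whereas without 1 library the tumor value was -0.42 to -0.29. The difference between tumors and cells was not tested.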

How the results depend on the processing

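Over 15 alternatives in each table, 388 of 428 fold changes of the 29 members tested in tumors and 272 of 290 of the 20 tested in cells kept their direction and their side of the threshold; 13 members in tumors and 8 in cells reversed at least once. In tumors *Krt7* was 0.047 with a pseudocount of 0.1. With median-ratio scaling *Krt7* was 0.0098, *Cdh2* 0.0023, *Zeb1* 0.068 and *Pdgfra* 0.053, and in cells *Sparc* -0.016. With quantile normalization *Zeb1* was 0.074, *Zeb2* 0.015 and *Pdgfra* 0.073 in tumors, and *Vim* -0.10, *Zeb1* 0.0056, *Zeb2* 0.021 and *Sparc* -0.069 in cells, where *Ocln* passed at 0.28 (adjusted p = 0.0456, limma), the 1 member called. With the length covariate *Cdh2* was 0.012, *Zeb1* 0.099, *Zeb2* 0.090 and *Pdgfra* 0.16 in tumors, and *Krt8* -0.20, *Vim* -0.32, *Snai1* 0.035, *Zeb1* 0.11, *Zeb2* 0.026 and *Sparc* -0.16 in cells. Leaving out 1 library gave, in tumors, *Epcam* -0.093 to 0.42, *Cdh1* -0.021 to 0.45, *Krt7* -0.33 to 0.47, *Krt18* -0.31 to 0.23, *Krt19* -1.19 to 0.33, *Cldn3* -0.20 to 0.66, *Cldn4* -0.32 to 0.11, *Cdh2* -0.088 to 0.063, *Snai2* -0.46 to 0.0048, *Zeb1* -0.26 to 0.13, *Zeb2* -0.45 to 0.18, *Sparc* -0.093 to 0.23 and *Pdgfra* -0.33 to 0.35. In cells it gave *Esrp2* -0.027 to 0.13, *Vim* -0.084 to 0.27, *Zeb1* -0.047 to 0.031, *Acta2* -0.0093 to 0.25 and *Sparc* -0.052 to 0.039.

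The epithelial median in tumors was -0.45 over the 8 genes with a mean of at least 1. In cells it was -0.010 with no filter, -0.13 with quantile normalization and -0.106 to -0.045 without 1 library, and the mesenchymal median was -0.044 to -0.012 without 1 library. The 270 genes called in cells became 77 with no filter, 408 with a mean of at least 1, 1223 with quantile normalization, 1230 with median-ratio scaling, 171 without the trend, 1 with the length covariate and 2 to 242 without 1 library; the share that rose, 40.7%, was 31.0% without the trend. The cause was not tested.

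With the replicate block 0 genes were called in tumors (911 at an unadjusted p under 0.05) and 0 in cells (2813). Plates share only a number, and their deviations correlated at -0.061, -0.075 and -0.073. With 3 libraries a group and unknown depth, differences of members at low levels could not be resolved.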
